A study of Mus musculus with 9 samples.

Results

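The Kruppel-like factors described here are 9 transcription factor genes of 1 zinc finger family, Klf2, Klf3, Klf4, Klf5, Klf6, Klf7, Klf9, Klf10 and Klf13. They were chosen by gene symbol from the 22942 rows of the RNA table, by a rule that reads no measured value although earlier results of these data were known, and all 9 were found. Klf1, the family member of red cell development, was not among them. RNA came from bone marrow mononuclear cells of B6.SJL (CD45.1) mice, and the cells carried a pair of MSCV retroviruses. MLL-AF9 cells had received MSCVneo-MLL-AF9 with MSCVpuro, and control cells had received empty MSCVneo with MSCVpuro, so both groups carried the puro vector. MLL-AF9 joins the N-terminal part of MLL, a histone methyltransferase, to AF9, an oncogenic fusion found in acute leukemia, and was expressed here from a retrovirus. The age of the mice, the time after infection and whether libraries of a group came from separate animals are not given in the labels. Of the 9 samples of the series, 3 MLL-AF9 and 3 control libraries of polyA RNA concern these genes. The remaining DNA libraries, for 5-hydroxymethylcytosine and input, were not used here. The authors' deposited table gives every gene a single pooled FPKM value in each group (fragments mapped to a transcript, scaled to its length and to sequencing depth), and a p-value and q-value of their comparison. No value per library, no spread between libraries and no depth is therefore known, and the values below carry no error of their own.

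KLF proteins share a block of C-terminal zinc fingers that reads CACCC boxes and GC-rich boxes in DNA, while their N-terminal parts differ and recruit different partners. KLF2, KLF4, KLF5, KLF6 and KLF7 are known chiefly as activators that can work with acetyltransferases. KLF3 represses through the CtBP corepressor, and KLF9, KLF10 and KLF13 can repress through the SIN3A corepressor. In blood, KLF2 keeps lymphocytes quiescent and guides their trafficking, KLF4 takes part in monocyte formation, and KLF3 in B cell development.

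Since the factors bind GC-rich and CACCC elements, and several members are known to be controlled by family members, the 250 bases before the transcription start are shown for 3 members. They are Klf2, the member with the highest level, Klf4, which the MEK5 and ERK5 kinase pathway is known to induce together with Klf2 in vascular cells, and Klf9, the member with the largest ratio between groups. Sequences are from RefSeq, build GRCm38.p6, whereas the RNA table was made on mm9, and 7 of the 9 members were matched by symbol, Klf5 and Klf10 not. They run 5′ to 3′ on the gene's strand. Capitals mark the GC box (GGGCGG, or CCGCCC on the other strand), the CACCC box (CACCC, or GGGTG on the other strand) and the MEF2 consensus motif, each searched on both strands with overlapping matches counted.
Klf2, chr8:72318812-72319061, plus strand: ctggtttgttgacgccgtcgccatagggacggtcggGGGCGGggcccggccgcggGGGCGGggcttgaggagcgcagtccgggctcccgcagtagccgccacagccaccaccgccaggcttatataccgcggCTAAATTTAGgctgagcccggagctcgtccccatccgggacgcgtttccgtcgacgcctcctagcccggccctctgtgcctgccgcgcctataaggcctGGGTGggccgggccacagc
Klf4, chr4:55532476-55532725, minus strand: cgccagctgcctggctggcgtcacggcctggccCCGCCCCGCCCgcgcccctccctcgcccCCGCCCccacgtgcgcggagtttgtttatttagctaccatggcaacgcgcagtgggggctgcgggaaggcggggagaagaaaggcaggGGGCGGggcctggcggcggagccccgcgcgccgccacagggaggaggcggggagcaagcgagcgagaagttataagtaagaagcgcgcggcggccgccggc
Klf9, chr19:23140976-23141225, plus strand: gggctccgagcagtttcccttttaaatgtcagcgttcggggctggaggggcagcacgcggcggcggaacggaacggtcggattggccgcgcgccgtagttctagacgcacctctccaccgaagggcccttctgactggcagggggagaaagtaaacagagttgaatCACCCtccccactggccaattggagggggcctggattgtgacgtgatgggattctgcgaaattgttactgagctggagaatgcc
The Klf4 stretch held 4 GC boxes and 0 CACCC boxes, the Klf2 stretch 2 and 1, and the Klf9 stretch 0 and 1. Among the 7 members, 6 had a GC box and 5 a CACCC box in this window, and the GC content lay between 59.2% and 78.4%. Of 32817 promoter windows of the same length, 32.7% held a GC box and 52.0% a CACCC box. GC content was not computed for all windows, so these shares were not compared at like GC content. The MEF2 consensus was matched in 1 of the 7 members, Klf2, as CTAAATTTAG from 118 to 109 bases before the start, and in 2.92% of all windows. A match of letters describes the window and is no evidence of binding.

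The comparison asked how the level of each factor differed between MLL-AF9 and control cells. No member passed the authors' test. Of the 9 members, 0 were called from the authors' deposited table at a q-value under 0.05. Of the 11538 genes whose mean over both groups reached 1 FPKM, 10.3% were called, 5.13% as higher and 5.2% as lower. At an unadjusted p under 0.05 there was 1 member, Klf9, beside 19.8% of all genes tested. All 9 members reached the minimum mean. Values were higher in MLL-AF9 cells for 6 members and lower for 3. Their median log2 change was 0.15 on the log2(FPKM + 1) scale, beside a median of 0.29 over all genes tested, of which 68.7% had a higher value in MLL-AF9 cells. Quantile normalization lowered both medians, to 0.0094 for the 9 members and 0.08 for all genes tested. Relative to the median of 0.29, 4 members lay above the median gene and 5 below, and centring on it turned the sign for Klf6 and Klf13. S100a8 alone made up 15.4% of the summed FPKM of all rows in control cells and 2.08% in MLL-AF9 cells. Both sums include S100a9, which was left out of the genes tested. It was listed at 10526 FPKM in MLL-AF9 cells and at 0 in control cells, so the 2 shares rest on unlike totals. As FPKM is scaled to depth, a transcript as abundant as S100a8 bears on the values of all other genes. The part of S100a8 in the higher values was not tested.

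An error for each ratio can be had only on an assumption. If the authors' p-value is read as that of a two-sided normal test of the log2 ratio, which their table does not state, it implies a standard error, and from it a 95% interval of the ratio. The implied standard error had a median of 0.55 on the log2 scale over the genes tested and lay between 0.51 and 0.92 for the 9 members. On this reading every one of the 9 intervals held a difference of more than 2-fold in at least 1 direction. The absence of a call therefore does not show equal levels.

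**Figure D1:**
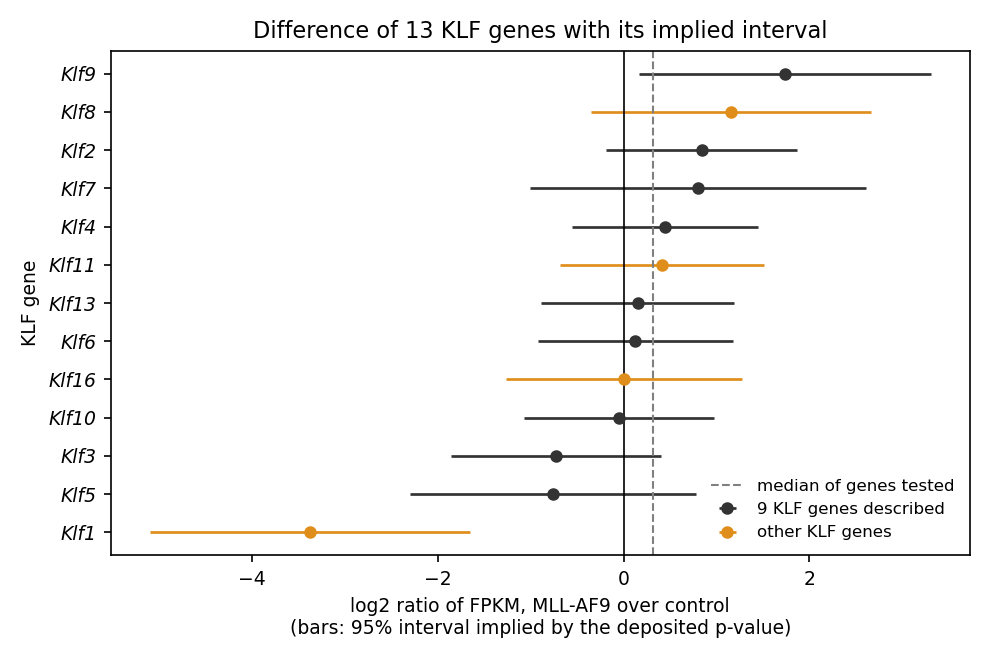
The log2 ratio of FPKM in MLL-AF9 over control cells (x axis) for the 13 expressed KLF genes (y axis), black for the 9 genes described and orange for the other 4. Bars are 95% intervals implied by the authors' p-value before adjustment under a normal reading, the dashed line is the median of all genes tested at 0.32. The intervals of Klf9 and Klf1 lie clear of 0, on opposite sides, and those of the remaining genes cross it.

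Klf2, the quiescence and trafficking factor of lymphocytes and a regulator of vessel walls, was the most abundant member in both groups. It stood at 169 FPKM in MLL-AF9 cells and 94.2 FPKM in control cells, which placed it above 95.01% and 91.3% of the genes tested. The ratio was 1.79, with p = 0.109 and q = 0.375 in the authors' deposited table and an implied interval of 0.878 to 3.65. Klf2 alone made up 46.7% of the summed FPKM of the 9 members in MLL-AF9 cells and 34.7% in control cells, sums of 361 and 271 FPKM.

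Klf4, a factor of monocyte and epithelial differentiation also used to reprogram cells, was listed at 41.3 FPKM in MLL-AF9 cells and 30.3 FPKM in control cells. Its ratio of 1.36 had q = 0.683 in the authors' deposited table and an implied interval of 0.682 to 2.72. Markers of monocytes and macrophages summed to 500 FPKM in MLL-AF9 cells and 557 FPKM in control cells. Of these 10 markers 4 fell, 0 rose and none was at 0. Those that fell were Mrc1, C1qa, C1qb and C1qc, and the highest of them in MLL-AF9 cells was C1qa at 1.70 FPKM. The other 6 were not called, and 4 of them had higher values in MLL-AF9 cells. Among these the receptor Csf1r was level at 82.4 FPKM in MLL-AF9 cells against 81.3 FPKM in control cells. The part of monocyte content in the Klf4 value was not tested. In bulk RNA, fewer cells of a type and less RNA per cell cannot be told apart.

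Klf6, an early response factor of injury and myeloid activation, was the second most abundant member in both groups and stood at nearly the same value in both. It was listed at 68.5 FPKM in MLL-AF9 cells and 62.7 FPKM in control cells, a ratio of 1.09. The authors' deposited table gives q = 0.928, and the implied interval was 0.527 to 2.27. Centring on the median gene turned its log2 change from 0.13 to -0.17.

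The other members known chiefly as activators were low. Klf5, a factor of proliferating epithelia that also acts in granulocyte formation, was at 3.85 FPKM in MLL-AF9 cells and 6.51 FPKM in control cells. The ratio of 0.591 had q = 0.645 in the authors' deposited table, with an implied interval of 0.204 to 1.71. Mature granulocytes carry transcripts of their own in control marrow: 9 of 10 late granulocyte markers fell, 0 rose and none was at 0, with summed levels of 22152 FPKM in MLL-AF9 cells and 195854 FPKM in control cells. Most of these sums was S100a8, at 16211 FPKM in MLL-AF9 cells and 130850 FPKM in control cells. Markers of promyelocytes, an earlier stage, showed no called difference. Mpo alone was listed lower, at 627 FPKM in MLL-AF9 cells against 927 FPKM in control cells. Of these 5 markers 0 were called and 4 had higher values in MLL-AF9 cells, with sums of 4431 FPKM in MLL-AF9 cells and 2945 FPKM in control cells. The part of either stage in the Klf5 value was not tested. Klf7, known from neuron development, was at 4.22 FPKM in MLL-AF9 cells and 2.42 FPKM in control cells, with an implied interval of the ratio from 0.499 to 6.12, the widest of the 9 on the log2 scale.

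Of the members linked to corepressors, Klf9 had the largest ratio of all 9 members and Klf3 a lower value in MLL-AF9 cells. Klf9, a target of glucocorticoid and thyroid hormone receptors, was listed at 4.16 FPKM in MLL-AF9 cells and 1.25 FPKM in control cells. The ratio of 3.32 had p = 0.0308 and q = 0.170 in the authors' deposited table, so it did not pass after adjustment. Its implied interval before adjustment ran from 1.12 to 9.88, and its log2 change lay above that of 92.8% of the genes tested. Both levels are low, in control cells above 5.78% of the genes tested, and the log2 change of 1.20 became 1.66 with a pseudocount of 0.1 FPKM and 0.55 with one of 5 FPKM.

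Klf3, which represses through CtBP, was at 10.03 FPKM in MLL-AF9 cells and 16.6 FPKM in control cells, a ratio of 0.604 that had q = 0.521 in the authors' deposited table and an implied interval of 0.276 to 1.33. Its log2 change of -0.67 on the log2(FPKM + 1) scale lay above that of 12.1% of the genes tested. Klf3 had the lowest change of the 9 on that scale and Klf5 the lowest ratio, and with a pseudocount of 0.1 FPKM Klf5 was below Klf3, at -0.74 against -0.72. B cell markers fell in the same cells, 9 of 10 with 0 higher, from a list that summed to 38.2 FPKM in MLL-AF9 cells and 699 FPKM in control cells, with none at 0. Their part in the Klf3 value was not tested.

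Klf10 and Klf13 were near level. Klf10, the immediate early gene of TGF-beta signalling also called TIEG1, stood at 21.4 FPKM in MLL-AF9 cells and 22.1 FPKM in control cells, a ratio of 0.966 for which the authors' deposited table lists q = 0.973. Klf13, an activator of the chemokine gene Ccl5 in T cells that can also repress, stood at 39.3 FPKM in MLL-AF9 cells and 35.3 FPKM in control cells, with a ratio of 1.11 and q = 0.909 in the authors' deposited table. The log2 change of Klf13 was 0.15 and turned to -0.14 after centring on the median gene. The implied intervals of 0.477 to 1.96 for Klf10 and 0.542 to 2.28 for Klf13 leave room for differences in either direction.

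**Figure D2:**
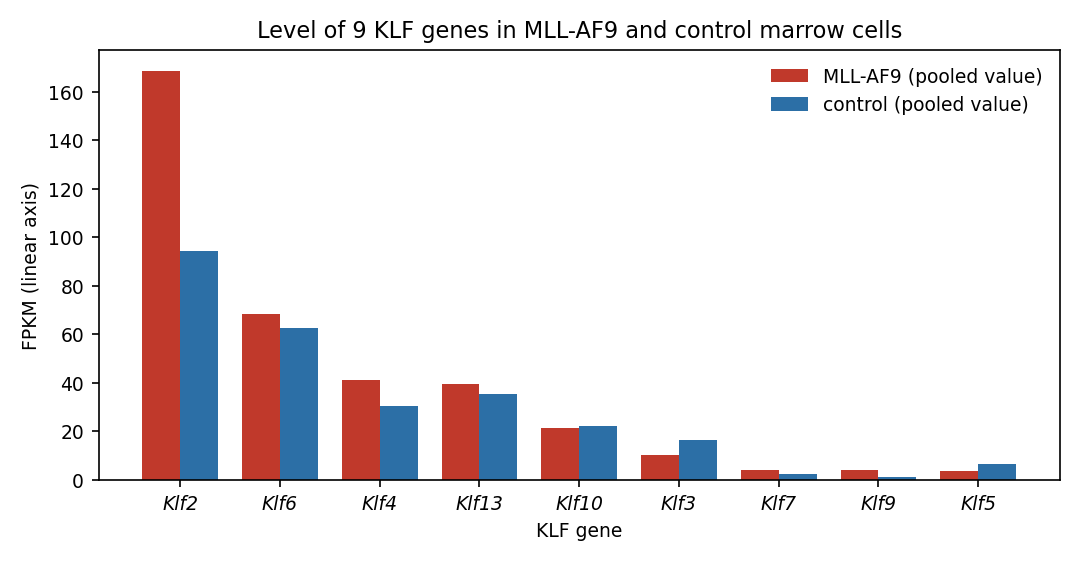
Pooled FPKM (y axis, linear, from 0) of the 9 KLF genes (x axis) in MLL-AF9 cells (red, left bar) and control cells (blue, right bar), 1 value per group without an error, ordered by the MLL-AF9 level. Klf2 is the highest in both groups, at 169 and 94.2 FPKM, and Klf5, Klf7 and Klf9 are below 7 FPKM in both.

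The order of the members by FPKM, a scale per length of transcript, was similar in both groups. In MLL-AF9 cells it ran Klf2, Klf6, Klf4, Klf13, Klf10, Klf3, Klf7, Klf9 and Klf5, and in control cells Klf2, Klf6, Klf13, Klf4, Klf10, Klf3, Klf5, Klf7 and Klf9. The first member was 43.8 times the last in MLL-AF9 cells and 75.3 times the last in control cells. Klf4 and Klf13 traded places at ratios of 1.05 and 1.17. Klf5 stood before Klf7 and Klf9 in control cells and after them in MLL-AF9 cells. In control cells Klf5 exceeded Klf7 by 2.69 times and Klf7 exceeded Klf9 by 1.93 times. In MLL-AF9 cells Klf7 exceeded Klf9 by 1.02 times and Klf9 exceeded Klf5 by 1.08 times. With 1 pooled value per group, no spread is at hand to tell neighbours in either order apart.

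**Figure D3:**
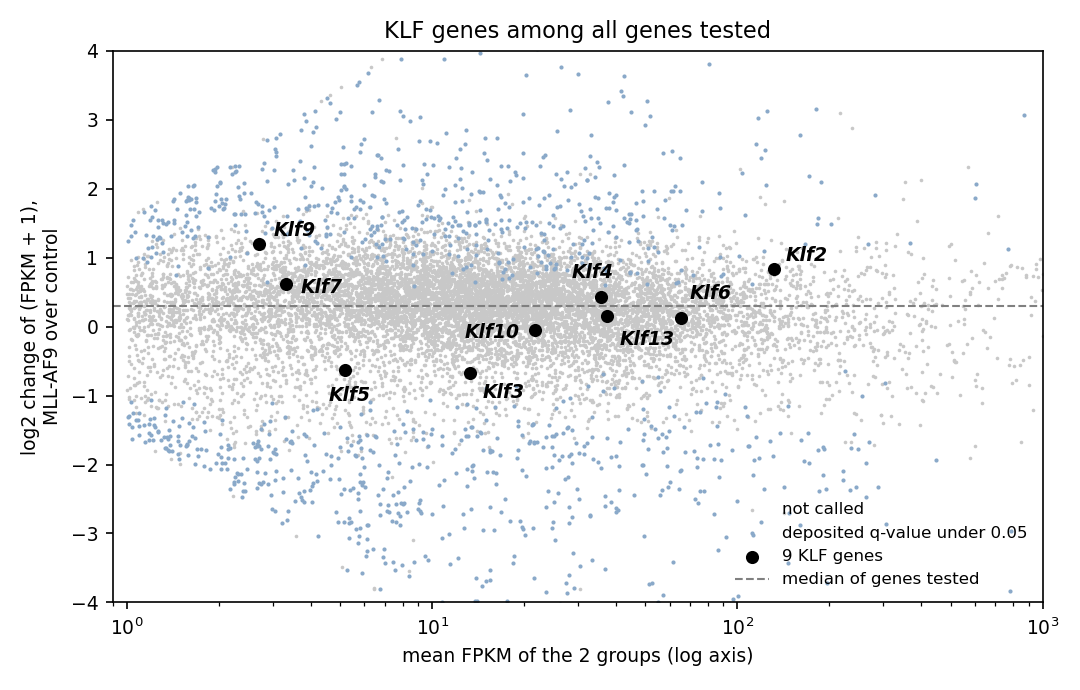
The log2 change of (FPKM + 1) in MLL-AF9 over control cells (y axis) against the mean FPKM of the 2 groups (x axis, log scale), with genes tested in grey, those with a deposited q-value under 0.05 in blue and the 9 KLF genes in black. Of the genes tested, 239 lie outside the plotted range. The KLF genes lie within the grey band, Klf9 nearest to its upper edge and Klf3 and Klf5 lowest.

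Among the rest of the family, Klf1 fell and the remaining expressed genes were not called. Of 17 listed KLF genes, 13 reached the minimum mean, and 1 of these 13 was called. Klf1, the erythroid activator of globin genes, was 10.4-fold lower, at 0.884 FPKM in MLL-AF9 cells against 9.19 FPKM in control cells (q = 0.00247 in the authors' deposited table). Erythroid markers moved with it: 6 of 9 fell and 0 rose, with sums of 68.6 FPKM in MLL-AF9 cells and 262 FPKM in control cells and none at 0, and their part in the Klf1 value was not tested. Whether the difference of Klf1 itself departs from those of the 9 members was not tested. Klf8, a CtBP-dependent repressor whose gene is known to be repressed by KLF3, was at 2.85 FPKM in MLL-AF9 cells against 1.28 FPKM in control cells (q = 0.416 in the authors' deposited table). Klf11, a SIN3A-dependent repressor, was at 9.29 FPKM in MLL-AF9 cells against 6.97 FPKM in control cells, and its relative Klf16 was at 6.28 FPKM in MLL-AF9 cells against 6.26 FPKM in control cells. Klf14, Klf15 and Klf17 were under 0.05 FPKM in both groups, and Klf12 was listed at 0 in MLL-AF9 cells and 0.0462 FPKM in control cells. Of the related SP factors, which bind the same GC boxes, 4 of 9 were expressed, and of these 4 genes 0 rose, 0 fell and 0 had an unadjusted p under 0.05. Sp3 was at 61.2 FPKM in MLL-AF9 cells against 67.6 FPKM in control cells and Sp1 at 30.2 FPKM in MLL-AF9 cells against 22.2 FPKM in control cells.

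The other genes of KLF function came from 12 lists, chosen with earlier results of these data known and including the remaining KLF genes and SP factors. Of their 78 distinct expressed genes 9 were called, 11.5%, beside 10.3% of all genes tested. Of these, 4 rose and 5 fell.

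Corepressor genes were not called. Of 7 expressed CtBP corepressor genes 0 passed, with 1 at an unadjusted p under 0.05, with a median log2 change of 0.49, beside 0.29 for all genes tested. All 7 had higher values in MLL-AF9 cells as deposited, but 3 of them lay below the median of all genes tested. Ehmt2 and Wiz, also on this list, were not matched. Ctbp1, which encodes a CtBP corepressor, was at 95.1 FPKM in MLL-AF9 cells against 86.5 FPKM in control cells. Ctbp2, the other CtBP gene of this list, was at 29.6 FPKM in MLL-AF9 cells against 14.8 FPKM in control cells, also without passing. The deacetylase gene Hdac1 was at 95.5 FPKM in MLL-AF9 cells against 83.5 FPKM in control cells. Of 13 SIN3 corepressor genes 0 passed, 0 at an unadjusted p under 0.05, with a median of 0.36 that became 0.20 under quantile normalization. Sin3b, a scaffold of this complex, was at 118 FPKM in MLL-AF9 cells against 97.7 FPKM in control cells, and Sin3a and Sap18 were not matched. Of 4 acetyltransferase genes, Kat2a, which encodes GCN5, rose 1.98-fold to 22.1 FPKM in MLL-AF9 cells, against 11.1 FPKM in control cells (q = 0.0369 in the authors' deposited table). Ep300, which encodes the KLF coactivator p300, was at 32.4 FPKM in MLL-AF9 cells against 21.2 FPKM in control cells without passing. Stem and progenitor markers rose with Kat2a: 4 of 6 rose and 1 fell, with sums of 337 FPKM in MLL-AF9 cells and 152 FPKM in control cells and none at 0, and their part in the Kat2a value was not tested.

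Of regulators of KLF genes, Mef2c rose. MEK5 and ERK5 signalling acts through MEF2 factors to induce KLF2 and KLF4 in vessel walls, and FOXO1 is known to promote KLF2 in T cells. Of 9 genes of this list 1 rose, 0 fell and 3 had an unadjusted p under 0.05, with a median log2 change of 0.48 that became 0.18 under quantile normalization. Mef2c was 8.18-fold higher, at 88.5 FPKM in MLL-AF9 cells against 10.8 FPKM in control cells (q = 1.68e-12 in the authors' deposited table), beside the rise in stem and progenitor markers given above, whose part was not tested. Mef2d, at 40.3 FPKM in MLL-AF9 cells against 18.3 FPKM in control cells, did not pass, its q in the authors' deposited table being 0.163. Foxo1 was at 2.63 FPKM in MLL-AF9 cells against 7.09 FPKM in control cells and did not pass either, its q in the authors' deposited table being 0.125. The kinase genes Map3k3, at 54.8 FPKM in MLL-AF9 cells against 45.0 FPKM in control cells, and Mapk7, which encodes ERK5, at 13.8 FPKM in MLL-AF9 cells against 19.95 FPKM in control cells, were not called. The MEF2 consensus printed above for Klf2 stands beside a Klf2 ratio of 1.79 that did not pass. A link between the Mef2c level, this motif and the Klf2 value was not tested.

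Of 8 ubiquitin ligase genes reported to act on KLF proteins 0 passed, also 0 at an unadjusted p under 0.05, with a median log2 change of 0.17. Fbxw7, also on this list, was not matched. Itch was at 41.8 FPKM in MLL-AF9 cells against 26.8 FPKM in control cells and Vhl at 18.5 FPKM in MLL-AF9 cells against 23.5 FPKM in control cells. Of 9 TGF-beta signalling genes, the pathway that induces Klf10, 0 passed and 0 had an unadjusted p under 0.05, with a median of 0.20. Both medians were under that of all genes tested and turned below 0 under quantile normalization. The ligand gene Tgfb1 was at 119 FPKM in MLL-AF9 cells against 88.6 FPKM in control cells and the signal transducer Smad4 at 23.2 FPKM in MLL-AF9 cells against 20.1 FPKM in control cells.

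Of 7 glucocorticoid response genes, the hormone pathway that induces Klf9, 1 rose, 0 fell and 2 had an unadjusted p under 0.05. Their median log2 change of 0.53 became 0.42 under quantile normalization and 0.94 with a pseudocount of 0.1 FPKM. The value of 0.94 is that of a single uncalled gene near the minimum level, with a mean of 1.11 FPKM. The clock gene Per1 rose 4.44-fold, to 23.3 FPKM in MLL-AF9 cells, against 5.24 FPKM in control cells (q = 0.000319 in the authors' deposited table), and the part of stem and progenitor content in its value was not tested. Tsc22d3, which encodes the leucine zipper protein GILZ, was at 166 FPKM in MLL-AF9 cells against 67.7 FPKM in control cells, and its q of 0.0710 in the authors' deposited table did not pass. The phosphatase gene Dusp1 was at 149 FPKM in MLL-AF9 cells against 75.6 FPKM in control cells, also without passing. The receptor gene Nr3c1 was at 24.1 FPKM in MLL-AF9 cells against 23.7 FPKM in control cells.

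Trafficking receptors known as KLF2 targets in lymphocytes fell or were not called. S1pr1, the sphingosine phosphate receptor for exit from lymphoid organs, was 39.8-fold lower, at 0.371 FPKM in MLL-AF9 cells against 14.8 FPKM in control cells (q = 2.44e-08 in the authors' deposited table). S1pr4, its relative, was 3.80-fold lower, at 13.1 FPKM in MLL-AF9 cells against 49.7 FPKM in control cells (q = 0.00672 in the authors' deposited table). The chemokine receptor Ccr7 did not pass, at 2.73 FPKM in MLL-AF9 cells against 10.1 FPKM in control cells. The integrin gene Itgb7 was at 169 FPKM in MLL-AF9 cells against 98.0 FPKM in control cells, also without passing. Of these 4 genes 2 fell and 0 rose, with a median log2 change of -1.71, while Klf2 itself was listed at the higher value in MLL-AF9 cells. T and NK cell markers fell in the same cells, 8 of 10 with 0 higher, with sums of 29.0 FPKM in MLL-AF9 cells and 201 FPKM in control cells and none at 0. B cell markers fell as given beside Klf3. The part of lymphocyte content in the S1pr1 and S1pr4 values was not tested.

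Among targets of other members 1 rose and 2 fell. Of 6 cell cycle genes reported as KLF targets, Cdkn1a, which encodes the inhibitor p21 and is induced by KLF4 and KLF6, rose 4.85-fold, to 29.8 FPKM in MLL-AF9 cells, against 6.13 FPKM in control cells (q = 0.00329 in the authors' deposited table), and the part of stem and progenitor content was not tested here either. The other 5 were not called, among them Odc1 at 70.3 FPKM in MLL-AF9 cells against 39.5 FPKM in control cells and Trp53 at 57.7 FPKM in MLL-AF9 cells against 48.4 FPKM in control cells. Ccl5, the chemokine gene that KLF13 activates in T cells, was 13.6-fold lower, at 5.06 FPKM in MLL-AF9 cells against 68.6 FPKM in control cells (q = 0.000215 in the authors' deposited table), beside the fall in T and NK cell markers given above, whose part was not tested. Lgals3, a galectin gene reported to be repressed by KLF3, fell 1.76-fold, to 220 FPKM in MLL-AF9 cells, against 388 FPKM in control cells (q = 0.0382 in the authors' deposited table). Klf3 itself was listed at the lower value in MLL-AF9 cells. Late granulocyte markers and some macrophage markers fell as given above, and their part in the Lgals3 value was not tested. Fam132a, another gene reported to be repressed by KLF3, did not pass, at 26.2 FPKM in MLL-AF9 cells against 45.9 FPKM in control cells, and the survival gene Bcl2l1 was at 14.8 FPKM in MLL-AF9 cells against 18.7 FPKM in control cells.

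**Figure D4:**
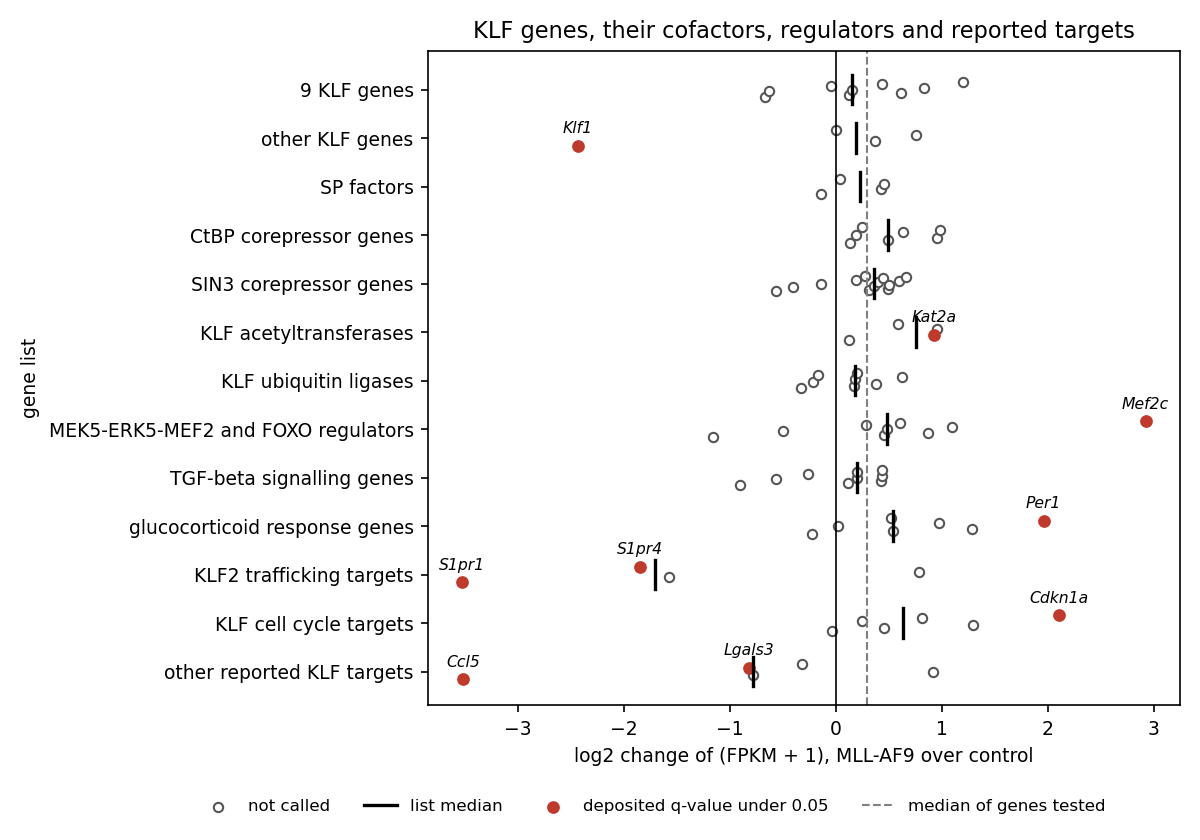
The log2 change of (FPKM + 1) in MLL-AF9 over control cells (x axis) for each expressed gene of the 9 KLF genes and of 12 lists (rows), filled red where the deposited q-value was under 0.05. Short black bars are list medians and the dashed line is the median of all genes tested at 0.29. The 9 named red genes are the only ones called in these lists, and the 9 KLF genes in the top row lie between -0.67 and 1.20.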

How the data were processed

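Groups were taken from the sample labels: 3 MLL-AF9 and 3 control RNA libraries, made with an unstranded kit, so antisense reads cannot be separated from those of a gene. The labels speak of duplicates, so which libraries were pooled is not known. Per the submitters' processing notes, the tools included Cufflinks 1.3.0 and TopHat 1.4.1, on build mm9. No source used here gives their settings. The deposited values were taken as FPKM made by the authors, a unit inferred from the tools and values. The p-value and q-value per gene are the authors' own, and the file headers do not name the test. The q-values equal a Benjamini-Hochberg adjustment over the 13502 rows with a q-value under 1, to within 2.1e-06. As the values are pooled, no new test was run. Depth is unknown. Genes were called at a q-value under 0.05 with a mean of at least 1 FPKM. S100a9 was left out, since a control level of 0 stands beside a p-value of 1 in its row. Log2 changes use a pseudocount of 1 FPKM, which understates changes of low genes, and folds are ratios of FPKM.

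The members and gene lists were chosen with earlier results of these data known, although the rule for the members uses gene symbols alone. Beside the 9 members and other KLF genes, the rule for named genes took up to 4 called members of each list by q-value and up to 2 uncalled ones of the highest level. Foxo1, Mapk7, Nr3c1 and Ctbp2 lie outside it and were named after their values were seen, as was Ccr7, which falls inside it among the genes reported. A gene of 1 list is not reported here. The arithmetic that derives standard errors from p-values was checked on simulated data. The simulated p-values came from a normal test, so the check cannot show that the authors' p-values can be read that way. The 5hmC regions are in mm9, and no annotation of that build was used here, so they were not set against these genes. Software was scipy 1.17.1, pandas 2.3.3, numpy 2.4.6 and matplotlib 3.10.9 under Python 3.11.15.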

Additional observations from a re-analysis of the deposited data

How the results depend on the processing

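The count of 0 called members was the same at a q-value under 0.01 or 0.1, without a minimum mean, with a minimum of 5 FPKM, and with the authors' p-values adjusted over the genes tested here, where the smallest member value was 0.184 (Klf9). Of 36 member changes under other pseudocounts and scalings, 33 kept their sign. Klf13 moved to -0.0027 under quantile normalization and -0.14 under median centring, and Klf6 to -0.17 under median centring. Over all genes the count of 1192 called fell to 786 at a q-value under 0.01. The 9 called pathway genes numbered 7 to 12 under alternatives chosen after seeing the data. Quantile normalization turned the median log2 change of the other KLF genes to -0.12, of SP factors to -0.014, of ubiquitin ligase genes to -0.11 and of TGF-beta signalling genes to -0.095, as it lowered the median of all genes tested to 0.08. It also lowered the median of the 9 members to 0.0094, of SIN3 corepressor genes to 0.20 and of the MEK5, ERK5, MEF2 and FOXO regulators to 0.18. The median of glucocorticoid response genes fell to 0.42 under quantile normalization. A pseudocount of 0.1 FPKM raised that median to 0.94 and put Klf5 below Klf3. No paired analysis was possible because the table holds 1 pooled value per group, and for the same reason no library could be left out. Without values per library or depth, the smallest difference that the authors' test could find is not known. The only guide is the width of the implied intervals, which rest on a normal reading of the p-values.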

Other observations

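The MEF2 consensus motif, found in the Klf2 window, was also counted over the genes tested that have a promoter entry, a list chosen after values were seen and given without a test. Of 130 such genes with a match, 6.15% rose and 5.38% fell, and of 7488 without one, 4.53% rose and 5.34% fell. The median log2 changes were 0.37 with and 0.29 without a match.

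A q-value of 1 beside a p-value under 0.05 occurs in 397 rows of the authors' deposited table, all with a mean under 1 FPKM. Klf12 is among these rows, with a deposited p-value of 0.0432. Sp9 is another, at 0.183 FPKM in MLL-AF9 cells and listed at 0 in control cells, with a deposited p-value of 0.0345. These rows lie outside the adjustment over the other rows, so their q-values cannot be read as a lack of difference.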
